A study of Mus musculus with 36 samples.

Results

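Chromatin accessibility was described at 4 genes of regulatory T cells (Treg), Foxp3, Ikzf2, Ikzf4 and Lrrc32, in conventional CD4 T cells of the mouse. A consensus ATAC-seq peak was taken as a member where its middle lay nearest to a protein-coding start of one of these genes, or where it overlapped the gene body, in GENCODE on GRCm39. This gave 42 of 71509 peaks: 3 at Foxp3, 29 at Ikzf2, 4 at Ikzf4 and 6 at Lrrc32. Each peak is named by the distance from the gene's canonical start to the middle of the peak, positive in the direction of transcription. Accessible chromatin was measured in 36 libraries, in 12 groups of 3, from mouse lines that lack HP1α or HP1γ, heterochromatin proteins that bind methylated histone H3. HP1α knockout (KO) mice were bred from heterozygotes in which a floxed allele had been excised by CMV-cre, so that all their cells lacked the gene. HP1γ KO mice carried floxed alleles and Cd4-cre, which acts in T cells. Littermates of a mixed 129/Sv and C57BL/6 background were the controls of each line, here called wild-type (WT). In the HP1α line these had no mutated allele. In the HP1γ line they were bred as floxed mice without Cd4-cre, so KO and control also differed in that transgene. Within each line and genotype, the groups were naive CD4 T cells from spleen, conventional T cells (Tconv) sorted from spleen after transfer of naive T cells into irradiated B6 hosts given an equal mix of B6 and B6D2F1 marrow, and Tconv from hosts that had also received WT Treg expanded ex vivo. In the sort described for the RNA of such cells, the injected Treg carried Thy1.1 under Foxp3 and were gated out. No library of sorted Treg was analysed here, so no set of Treg-specific peaks was defined from these data.

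Foxp3 is the transcription factor that specifies Treg and maintains their suppressive programme. Helios, encoded by Ikzf2, and Eos, encoded by Ikzf4, are zinc finger proteins of the Ikaros family that Treg express, and Helios also appears in conventional T cells after activation. GARP, encoded by Lrrc32, is a membrane protein that holds latent TGF-beta on the surface of activated Treg. In Treg, Foxp3 is controlled by its promoter and by intronic enhancers known as conserved noncoding sequences.

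The middle 200 bases of 6 peaks on which the results turn are printed from GRCm39, on the plus strand. The Foxp3 peak is shown because it is the only one of the 3 that overlapped no other gene. The 4 Ikzf2 peaks downstream and in the 3′ part of the gene are those that were called between KO and WT with Treg in both lines, and the Ikzf2 peak at +42.3 kb is one that fell on activation. They lie at chrX:7452940-7453139, chr1:69508470-69508669, chr1:69584185-69584384, chr1:69588015-69588214, chr1:69594800-69594999 and chr1:69684100-69684299, and capitals mark matches to the AP-1 motif TGANTCA.
Foxp3 +7.13 kb: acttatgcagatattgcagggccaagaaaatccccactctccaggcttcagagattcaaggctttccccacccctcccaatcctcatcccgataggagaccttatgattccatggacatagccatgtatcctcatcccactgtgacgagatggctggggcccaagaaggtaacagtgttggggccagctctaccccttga
Ikzf2 +218 kb: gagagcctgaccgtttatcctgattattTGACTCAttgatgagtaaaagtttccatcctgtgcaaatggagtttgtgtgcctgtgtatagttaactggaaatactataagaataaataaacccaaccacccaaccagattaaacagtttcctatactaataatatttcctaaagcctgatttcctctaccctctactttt
Ikzf2 +142 kb: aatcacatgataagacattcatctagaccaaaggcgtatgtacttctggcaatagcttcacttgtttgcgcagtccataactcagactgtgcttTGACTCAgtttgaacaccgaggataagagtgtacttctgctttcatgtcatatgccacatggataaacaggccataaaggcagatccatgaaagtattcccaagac
Ikzf2 +138 kb: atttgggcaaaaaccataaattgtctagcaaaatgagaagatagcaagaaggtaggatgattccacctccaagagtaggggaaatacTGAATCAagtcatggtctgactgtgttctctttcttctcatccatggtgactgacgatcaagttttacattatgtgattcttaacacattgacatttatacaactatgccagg
Ikzf2 +132 kb: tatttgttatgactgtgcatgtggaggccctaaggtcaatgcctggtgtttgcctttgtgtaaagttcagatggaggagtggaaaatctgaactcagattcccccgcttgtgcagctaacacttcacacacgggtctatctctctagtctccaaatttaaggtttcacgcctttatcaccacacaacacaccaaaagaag
Ikzf2 +42.3 kb: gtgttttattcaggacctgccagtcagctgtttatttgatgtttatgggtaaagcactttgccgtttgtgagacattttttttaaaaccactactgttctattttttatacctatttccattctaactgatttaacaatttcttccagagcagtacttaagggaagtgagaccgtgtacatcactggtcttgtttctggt

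The Ikzf2 +218 kb and +142 kb windows each held 1 AP-1 match, TGACTCA, and the +138 kb window held 1, TGAATCA. Over the middle 300 bases of each peak, searched on both strands, AP-1 matches were present in 13% of all 71509 peaks and in 6 of the 29 Ikzf2 peaks, and RUNX matches (TGTGGTT) in 12.9% and 5 of 29. Forkhead (TGTTTAC) and STAT (TTCNNNGAA) matches were in 4.34% and 8.89% of all peaks, and in 2 and 5 of the Ikzf2 peaks. The 3 Foxp3 windows held none of the 4 motifs.

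Accessibility is given as CPM (reads in a peak per 1000000 reads in all peaks), scaled over the 36 libraries, and a peak was called where its adjusted p was below 0.05 and its log2 fold change above 1 in size. Nothing in the labels says that replicates came from separate animals, so p-values measure the spread between these libraries. The libraries held between 1486053 and 96806542 reads in peaks. Of the HP1α Tconv libraries with Treg, the study left out WT replicate 3 and KO replicates 2 and 3 for low enrichment, so that fit (15 libraries) set 1 KO against 2 WT libraries, one of which had 1486053 reads. Values of the fit over all libraries are therefore set beside those of the 15 for the main counts and calls. Neither targeted gene checked the labels, since peaks over the start of Cbx3 (HP1γ) had log2 fold changes between KO and WT of 0.02 to 0.11 and those over starts of Cbx5 (HP1α) of -0.16 to 0.13, none of them called. Naive T cell markers summed to between 1360 and 1820 CPM in naive libraries and between 529 and 913 CPM in Tconv, and all 8 CD4 T cell markers had a peak at the start. Of the B cell markers, Cd79a, Ms4a1, Cd22 and Blk had no peak at the start, and Cd79b, Pax5 and Ebf1 summed to between 9.27 and 26.2 CPM.

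At Foxp3 itself, no consensus peak lay over the canonical promoter or the first intron, although peaks were called in each library of the 12 groups, Treg-exposed Tconv included, and then merged. The gene (ENSMUSG00000039521.14, chromosome X, 7439883 to 7461484, plus strand) had no consensus peak between 7441651 and 7452520, a stretch of 10.9 kb that runs from 4.26 kb before to 6.61 kb after the canonical start and holds 4 of its 6 protein-coding starts. Reads in that stretch were not counted in the deposited table, so a level there was not measured. The 3 Foxp3 peaks lay on either side of the gap, and 2 of them, at -6.94 and +7.13 kb, each held 1 alternative coding start. By the wider rule of a peak within 1000 bp of any protein-coding start, Foxp3 therefore counts among the 13051 of 21575 protein-coding genes (60.5%) with a start peak, as do the other members and 30 of 30 other genes of a Treg signature list. The peak at -6.94 kb (7436281 to 7441650) is shared with Ppp1r3f, whose start is nearer. The peak at +7.13 kb (7452521 to 7453560) overlaps coding sequence in part, while its middle 200 bases, printed above, hold no exon. The peak at +15.4 kb (7461211 to 7461460) overlaps the 3′ end and the neighbouring gene Ccdc22. Whether a peak covered one of the conserved noncoding sequences was not examined.

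**Figure D1:**
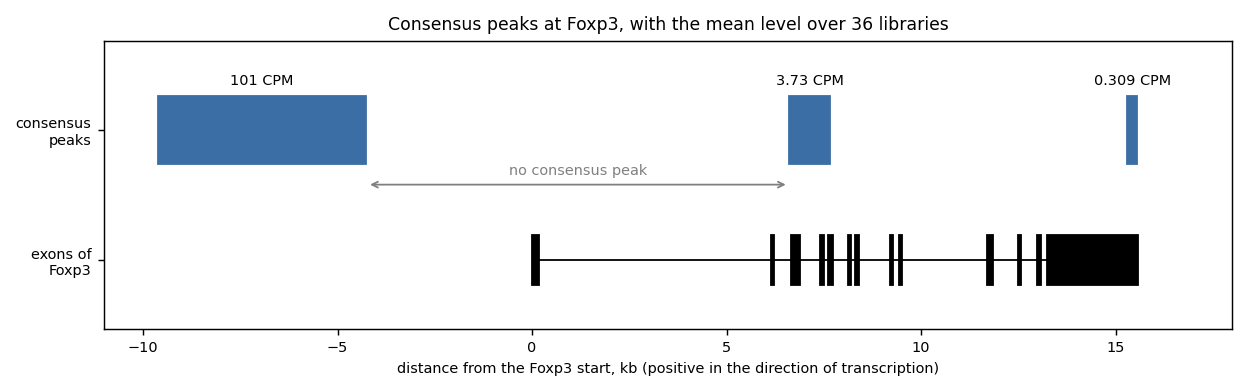
Consensus peaks (blue) and exons (black) at Foxp3 by distance from the canonical start in kb, with each peak's mean CPM over the 36 libraries. The peaks average 101, 3.73 and 0.309 CPM, and none lies in the marked stretch over the start and first intron.

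The Foxp3 peak at +7.13 kb was lower in Tconv than in naive cells in both lines and was not called in any comparison of Treg with no Treg. In the HP1γ line it held 6.01, 5.51 and 6.01 CPM in the naive WT libraries, 2.07, 2.43 and 2.5 CPM in WT Tconv and 2.69, 2.37 and 2.48 CPM in WT Tconv with Treg. In the HP1α line it held 4.35, 7.11 and 7.37 CPM in naive WT cells, 2.23, 2 and 5.12 CPM in WT Tconv and 2.48, 1.6 and 2.8 CPM with Treg. Those values rest on few reads, 166, 46 and 36 in WT Tconv and 33, 3 and 13 with Treg. Naive libraries were above Tconv without overlap in the HP1γ line, and 1 Tconv library of the HP1α line reached the naive range. The log2 fold change between Tconv and naive was -1.27 ± 0.14 (SE; edgeR quasi-likelihood test, adjusted p = 1.74e-07) in the HP1γ line and -1.38 ± 0.25 (adjusted p = 0.000133) in the HP1α line. Between Tconv with and without Treg it was 0.12 ± 0.19 in HP1γ WT, -0.43 ± 0.18 in HP1γ KO, -0.01 ± 0.62 in HP1α WT and -0.17 ± 0.36 in HP1α KO, and none of these passed the test (adjusted p = 0.746, 0.137, 0.994 and 1). Deletion changed it by -0.26 ± 0.2 (HP1γ, adjusted p = 0.36) and 0.11 ± 0.65 (HP1α, adjusted p = 0.955) with Treg.

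Neither flanking Foxp3 peak was called in a comparison of KO with WT or of Treg with no Treg. The peak shared with Ppp1r3f ranged from 93.7 to 128 CPM in all 18 HP1γ libraries and from 30.2 to 172 CPM in the HP1α libraries, where the log2 fold change between WT Tconv and naive cells was -0.74 ± 0.16 (adjusted p = 0.00064), under the fold threshold. The share of reads on the X chromosome was between 1.3% and 1.93% in the 36 libraries. The 3′ peak averaged 0.309 CPM, and had 0 reads in all 3 HP1α WT libraries with Treg. It was called higher in HP1γ WT Tconv than in naive cells (2.71 ± 0.7, adjusted p = 0.00122) on values of 1.37, 0.255 and 0.04 CPM against 0.108, 0.136 and 0.0488 CPM, which overlap.

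Ikzf2, the gene of Helios (ENSMUSG00000025997.15, chromosome 1, 69570373 to 69727004, minus strand), was remodelled on activation, with peaks called in both directions. The question here was how Tconv that had met alloantigen differed from naive cells of the same line. The intronic peak at +142 kb (69582511 to 69586060) held 2.58, 1.55 and 1.79 CPM in naive HP1γ WT libraries and 11.9, 14.1 and 22.5 CPM in Tconv, and in the HP1α line 1.87, 1.5 and 1.54 CPM against 17.1, 14.9 and 14.1 CPM. All Tconv libraries were above all naive ones in both lines, by 3.1 ± 0.37 (adjusted p = 4.59e-07) and 3.37 ± 0.23 (adjusted p = 2.05e-09) on the log2 scale. The +149 kb peak rose more, by 4.92 ± 0.52 (adjusted p = 1.08e-07) and 4.57 ± 0.29 (adjusted p = 9.66e-10). The intronic peak at +42.3 kb moved the other way, from 1, 1.34 and 1.2 CPM to 0.126, 0.073 and 0.2 CPM in HP1γ WT, and its log2 fold change was -3.1 ± 0.53 (adjusted p = 3.01e-05) there and -2.34 ± 0.53 (adjusted p = 0.000728) in HP1α WT. The start peak (-0.348 kb, 69724591 to 69729020) changed by -0.44 ± 0.15 and -0.69 ± 0.16, under the fold threshold. Per kb of peak it was the most open Ikzf2 peak, with a mean of 12.4 CPM per kb over the 36 libraries against 5.73 at +142 kb.

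These changes differed by position along the gene. All 6 peaks downstream of Ikzf2 were called higher in Tconv in both lines, as were 7 and 8 of the 9 peaks in the 3′ part of the gene, between +130 and +154 kb, while in the middle of the gene 5 and 3 of 7 peaks were called lower, with 0 and 2 higher. Around the start 2 of 5 peaks were called higher in each line, with 1 and 0 lower. Of the 2 upstream peaks, 1 and 0 were called higher. In all, 16 Ikzf2 peaks rose and 6 fell in the HP1γ line, where 24.5% of all peaks rose and 22% fell, and 18 rose and 3 fell in the HP1α line, where 24.9% rose and 17.5% fell. Over the 4 genes, 28 of 42 peaks were called in each line, against 46.5% and 42.5% of all peaks. These regions of Ikzf2 were drawn by position after the values had been seen.

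**Figure D2:**
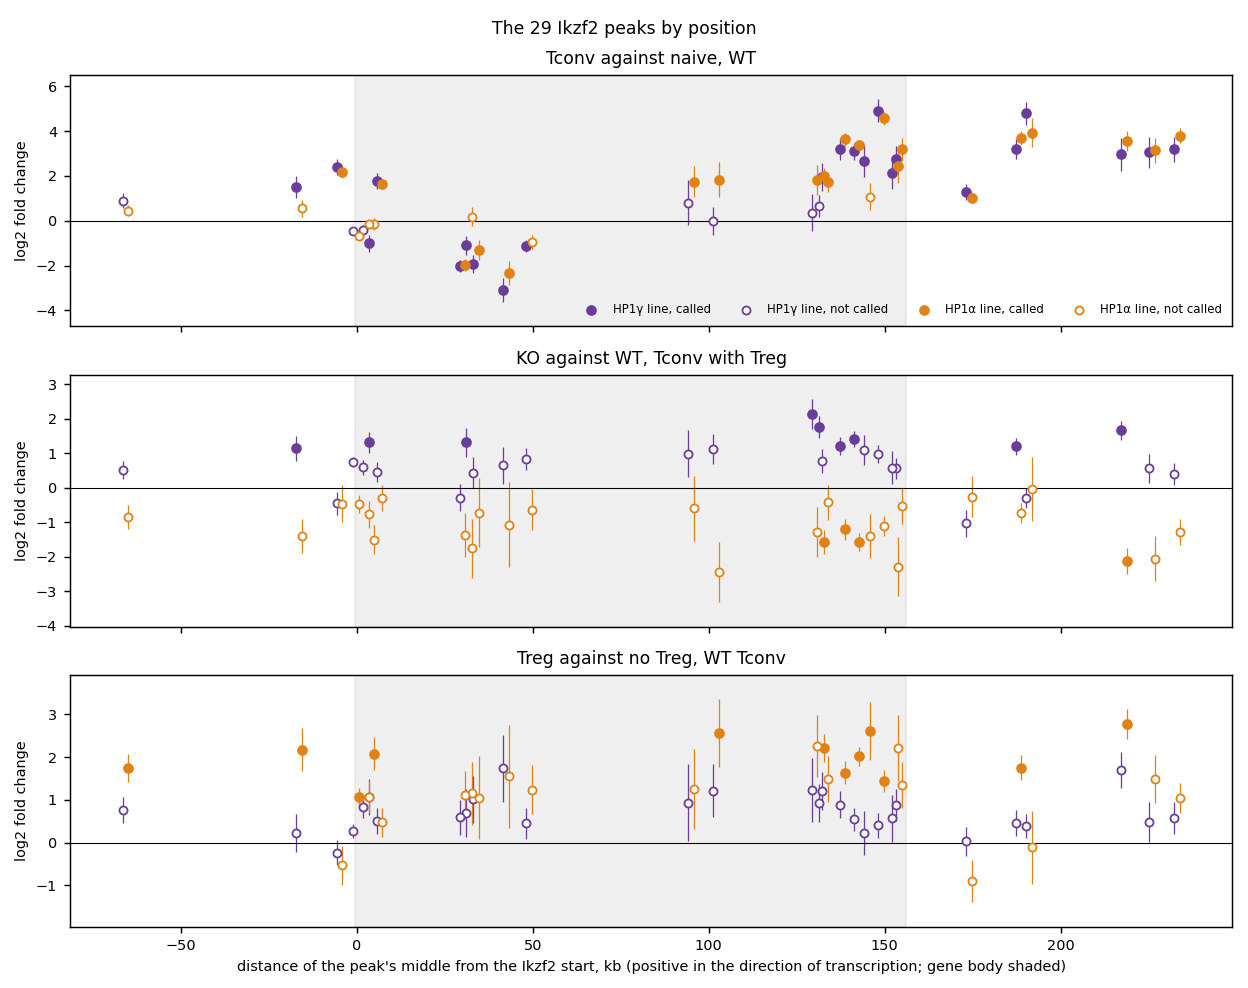
Log2 fold change ± SE of the 29 Ikzf2 peaks by distance from the start in kb, for Tconv against naive WT cells, KO against WT with Treg, and Treg against no Treg in WT Tconv. Filled points were called, purple is the HP1γ line and orange the HP1α line (drawn slightly apart), and the downstream peaks rise on activation in both lines, while the KO effects are above 0 at 25 of 29 peaks in the HP1γ line and below 0 at all 29 in the HP1α line.

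In HP1γ KO Tconv from hosts given Treg, Ikzf2 peaks were more open than in WT. The +142 kb peak held 29.2, 20.1 and 19.3 CPM in WT and 75.4, 51.6 and 59.7 CPM in KO. The downstream peak at +218 kb (69507921 to 69509220) held 6.08, 4.61 and 4.05 CPM in WT and 21.3, 12.3 and 14.3 CPM in KO, and the intronic peak at +132 kb (69594261 to 69595540) held 4.37, 3.73 and 4.05 CPM against 20.5, 9.29 and 10.8 CPM. At all of these peaks every KO library was above every WT library. The log2 fold changes were 1.41 ± 0.24 (edgeR adjusted p = 0.000691), 1.66 ± 0.27 (adjusted p = 0.000632) and 1.77 ± 0.32 (adjusted p = 0.00126). Of the 29 Ikzf2 peaks, 9 were called higher and 0 lower, the others at +188, +138, +130, +31.9, +4.16 and -16.5 kb by 1.14 to 2.13. The start peak was higher by 0.75 ± 0.15 (adjusted p = 0.00297), under the fold threshold. Over all peaks 11.9% were called, 6.48% higher and 5.38% lower, and the median log2 fold change was 0.77 at Ikzf2 and -0.02 over all peaks. AP-1 matches were in 4 of the 9 windows.

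The same line differed in the same direction without Treg. In Tconv the +142 kb peak held 11.9, 14.1 and 22.5 CPM in WT and 23, 45.1 and 30.1 CPM in KO, a log2 fold change of 1.01 ± 0.25 (adjusted p = 0.0243), and the +218 kb peak 1.04, 1.39 and 2.42 CPM against 4.18, 8.73 and 3.42 CPM, 1.67 ± 0.4 (adjusted p = 0.0204). KO lay above WT at both. In all, 6 Ikzf2 peaks were called higher, against 1.69% of all peaks called higher and 3.35% called. This count fell to 0 without KO replicate 2, WT replicate 1 or WT replicate 2 and to 3 without KO replicate 3, and rose to 12 without WT replicate 3. It was 0 when only the groups compared were fitted, and it also fell with edgeR's earlier quasi-likelihood method. In naive cells 0 of 42 peaks were called (0.14% of all), and 5 by DESeq2. An unadjusted p under 0.05 was found at 10 of 42, against 6421 of all 71508 peaks. All 29 Ikzf2 peaks had a log2 fold change above 0 in naive cells, with a median of 0.79 against 0.03 over all peaks, and in 20 of 29 KO lay above WT without overlap, against 14.1% of all peaks. The naive start peak held 56.8, 49.9 and 47.5 CPM in WT and 67, 78.8 and 78.6 CPM in KO (0.57 ± 0.14, adjusted p = 0.15). The KO effect did not differ by the test between Tconv with and without Treg at any of the 42 peaks, against 0.0014% of all peaks, and DESeq2 called 0. An unadjusted p under 0.05 was found at 1 of 42, against 9150 of all 71508 peaks.

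In HP1α KO Tconv with Treg, Ikzf2 peaks were less open than in WT. The +142 kb peak held 72.3, 36.9 and 34.1 CPM in WT and 21.8, 21.5 and 22.8 CPM in KO. The +218 kb peak held 18.9, 18.7 and 11.4 CPM in WT and 4.32, 9.29 and 7.72 CPM in KO, so all WT libraries were above all KO libraries at both. Over the 15 libraries the log2 fold changes were -1.56 ± 0.26 (edgeR adjusted p = 0.00519) and -2.12 ± 0.37 (adjusted p = 0.00684), with -1.56 ± 0.35 (adjusted p = 0.0316) at +132 kb and -1.2 ± 0.3 (adjusted p = 0.0494) at +138 kb. These 4 peaks were called lower, against 1.41% of all peaks called lower and 1.63% called. With all libraries it was 3 peaks, against 0.73% of all peaks called lower and 0.743% called, with -1.31 ± 0.23 (adjusted p = 0.00882), -1.53 ± 0.32 (adjusted p = 0.0241) and -1.42 ± 0.31 (adjusted p = 0.0299) at +142, +218 and +132 kb. The calls of both fits were lost when only the groups compared were fitted, and with edgeR's earlier quasi-likelihood method. Without WT replicate 1, which had the highest +142 kb value, the count was 0 in both fits, it was 2 without WT replicate 2 in the fit of 15, and it was 0 without KO replicate 1 in the fit of all libraries. The median over Ikzf2 was -1.12 over the 15 libraries, against -0.11 over all peaks. In Tconv without Treg and in naive cells, 0 of 42 peaks were called (0.021% and 0.00559% of all), and 0 by DESeq2 in each. An unadjusted p under 0.05 was found at 5 and 0 of 42, against 3453 and 835 of all 71509 peaks. AP-1 matches were in 3 of the 4 windows.

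**Figure D3:**
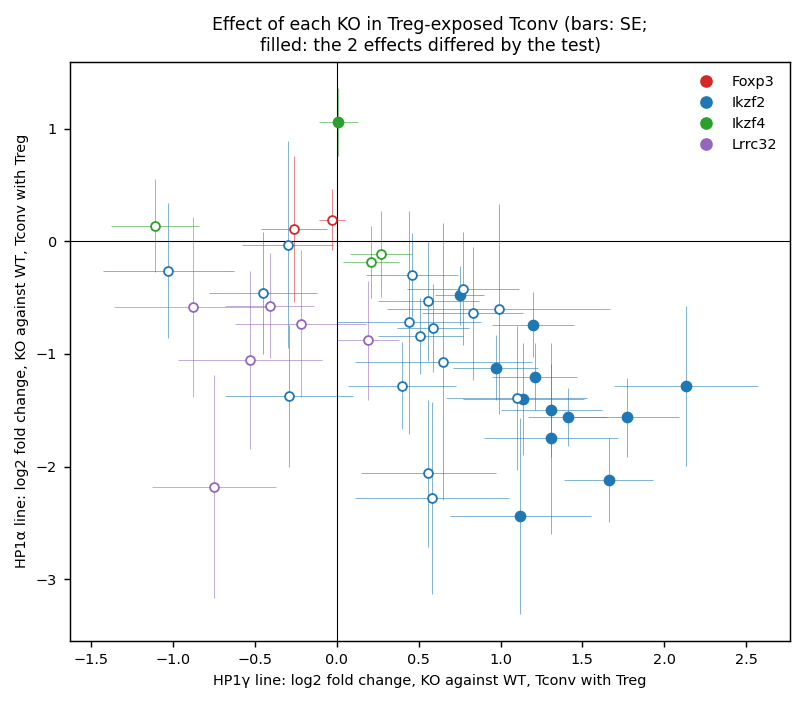
Log2 fold change ± SE between KO and WT Tconv with Treg, HP1γ line on the horizontal and HP1α line on the vertical axis, for 41 of the 42 peaks (Foxp3 +15.4 kb, with 0 reads in HP1α WT, is left out). Filled points differed between the lines by the test; 12 are Ikzf2 peaks, with values above 0 in the HP1γ line and below 0 in the HP1α line, of which 4 were called in both lines.

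The effects of the 2 deletions with Treg differed at Ikzf2 by a direct test. In 1 fit of both lines, the HP1γ effect minus the HP1α effect was 2.92 ± 0.43 (adjusted p = 5.64e-05) at +142 kb, 3.7 ± 0.56 (adjusted p = 6.91e-05) at +218 kb and 1.17 ± 0.31 (adjusted p = 0.0117) at the start. Of the Ikzf2 peaks 12 were called higher and 0 lower, against 7.07% and 4.02% of all peaks (11.1% in all), and Ikzf4 +0.03 kb was called lower. With all libraries 11 Ikzf2 peaks were called higher, against 7.79% of all peaks called higher and 10.8% called. The Ikzf4 call was lost (-0.92 ± 0.31, adjusted p = 0.0488), as was that at Ikzf2 +31.9 kb. Without HP1α WT replicate 1 with Treg, 0 were called. Both WT groups enter this comparison, and they were not alike: with Treg the +142 kb peak held between 19.3 and 29.2 CPM in HP1γ WT and between 34.1 and 72.3 CPM in HP1α WT.

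Exposure to Treg was examined in each genotype, to ask whether Tconv took on accessibility at Treg genes. The summed level of the 29 Ikzf2 peaks was 94.4, 126 and 153 CPM without and 175, 186 and 135 CPM with Treg in HP1γ WT, which overlap. It was 160, 255 and 167 CPM against 370, 263 and 299 CPM in HP1γ KO, 150, 130 and 116 CPM against 382, 219 and 239 CPM in HP1α WT, and 137, 134 and 141 CPM against 178, 177 and 176 CPM in HP1α KO. In those 3 groups all libraries with Treg were above all without. By peak, 0 of 42 were called in HP1γ WT (0.137% of all), and 1 by DESeq2. An unadjusted p under 0.05 was found at 10 of 42, against 14522 of all 71508 peaks. The smallest p of the 42 was at +218 kb (1.7 ± 0.42, adjusted p = 0.0824).

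In HP1γ KO 5 Ikzf2 peaks were called higher with Treg, at +218, +132, +130, +102 and +31.9 kb, against 6.1% of all peaks called higher and 8.15% called. The +218 kb peak rose by 1.69 ± 0.26 (adjusted p = 0.000467). That count was 1 without KO replicate 1 with Treg, 2 without KO replicate 1 or 3 without Treg, 14 without KO replicate 2 without Treg and 10 without KO replicate 2 with Treg. In HP1α WT 12 Ikzf2 peaks were called higher, against 4.92% of all peaks, led by +142 kb (2.02 ± 0.22, adjusted p = 4.39e-05), +218 kb (2.77 ± 0.35, adjusted p = 0.000155) and +132 kb (2.22 ± 0.33, adjusted p = 0.000666). The start was higher by 1.06 ± 0.22 (adjusted p = 0.00611), and by 0.89 ± 0.25 (adjusted p = 0.0276) with all libraries, where it missed the fold threshold. With 2 Ikzf4 peaks called lower (1.84% of all), 14 of 42 were called against 6.76%. The 14 became 16 with all libraries (7.78% of all peaks), 9 without WT Tconv replicate 1 and 0 without WT replicate 1 with Treg. In HP1α KO no Ikzf2 peak was called over the 15 libraries, which held 1 KO library with Treg, and with all libraries +218 kb (1.81 ± 0.33, adjusted p = 0.00697) and +154 kb (1.23 ± 0.32, adjusted p = 0.0359) were called higher, against 0.887% of all peaks called higher and 1.46% called. The difference between HP1α KO and WT in their response to Treg passed the test at 0 of 42 peaks (0.0461% of all), and at 0 by DESeq2. It was -1.54 ± 0.31 (adjusted p = 0.0873) at +142 kb. An unadjusted p under 0.05 was found at 11 of 42, against 7387 of all 71509 peaks. With all libraries it was found at 9 of 42, against 4962 of all 71508 peaks.

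Some markers of other cells were also higher in groups in which Ikzf2 was high, and others were not. B cell markers with a start peak (Cd79b, Pax5 and Ebf1) summed to between 18 and 21.9 CPM in HP1γ KO with Treg against 12.4 to 16.2 CPM in WT, and to between 22.7 and 26.2 CPM in HP1α WT with Treg, 11.2 to 13.2 CPM without Treg and 12.8 to 25.1 CPM in HP1α KO with Treg. NK cell markers with a start peak (Klrd1 and Eomes, the latter also used by T cells) summed to between 31.8 and 74.2 CPM in HP1γ KO with Treg against 27.7 to 37.8 CPM in WT, and to between 43.8 and 66.9 CPM in HP1α WT with Treg against 38.2 to 42.2 CPM in KO, while Ncr1 and Klrb1c had none. Myeloid markers, 4 of 8 with a start peak, summed to between 64 and 82.1 CPM against 55.7 to 60.4 CPM in HP1γ KO and WT with Treg, and overlapped in the HP1α line, at 49.8 to 73.2 CPM in WT and 53.2 to 73.7 CPM in KO. CD4 T cell markers summed to between 1790 and 2060 CPM in HP1γ KO with Treg, which carry the Cd4-cre transgene, against 1110 to 1410 CPM in WT. In HP1α WT they summed to between 707 and 1070 CPM with Treg and between 982 and 1330 CPM without. With Treg, naive T cell markers summed to 591 to 740 CPM in HP1γ KO against 746 to 832 CPM in WT, and to 529 to 565 CPM in HP1α WT against 655 to 744 CPM in KO. Activated T cell markers summed to between 427 and 574 CPM in HP1α WT with Treg and between 578 and 786 CPM without. Erythroid markers, 4 of 5 with a start peak, were lower in HP1α WT with Treg (61.1 to 67 CPM) than in KO (67.5 to 77.7 CPM). In the HP1γ line with Treg they overlapped, at 65.4 to 73.6 CPM in KO and 60.4 to 72.4 CPM in WT. Cd8b1, the CD8 T cell marker with a start peak, overlapped between KO and WT with Treg in both lines. The sort that the study describes for such cells gated on CD4 and on the Vβ6 chain of the T cell receptor. The part of these cells in the results was not tested, and a change per cell cannot be told apart from a change in the share of cells that are open at Ikzf2.

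**Figure D4:**
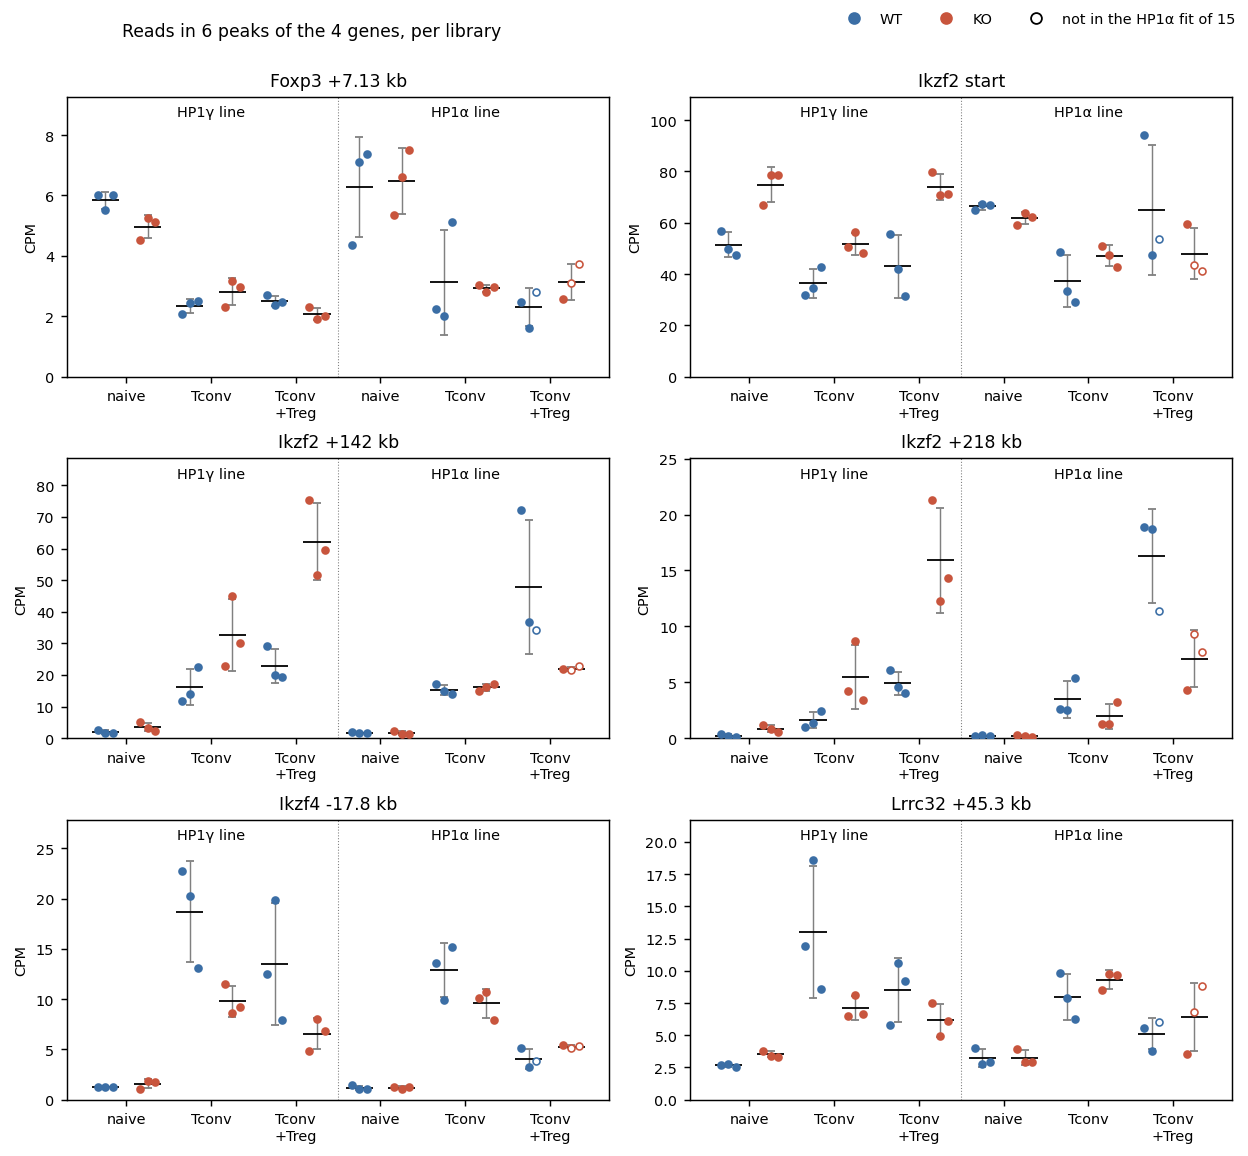
CPM per library (points), mean (bar) and SD (whiskers, n = 3) of 6 peaks of the 4 genes in the 12 groups, with open points for the 3 libraries not in the HP1α fit of 15. Foxp3 +7.13 kb is highest in naive cells, and Ikzf2 +142 kb and +218 kb are highest in HP1γ KO and HP1α WT Tconv with Treg.

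Ikzf4, the gene of Eos, gained 1 intronic peak on activation. The -17.8 kb peak (chromosome 10, 128499031 to 128500340) held 1.3, 1.29 and 1.22 CPM in naive HP1γ WT libraries and 22.8, 20.3 and 13.1 CPM in Tconv, and in the HP1α line 1.44, 1.11 and 1.02 CPM against 13.6, 9.94 and 15.2 CPM. All Tconv libraries were above all naive ones, by 3.96 ± 0.31 (edgeR adjusted p = 1.77e-09) and 3.51 ± 0.21 (adjusted p = 3.63e-10), the smallest p of the 42 peaks in either line. With Treg it held 12.5, 19.9 and 7.9 CPM in HP1γ WT and 4.88, 7.99 and 6.84 CPM in KO, which overlap, and was called lower in KO (-1.11 ± 0.27, adjusted p = 0.00929). In HP1α WT it was lower with Treg (5.18, 3.21 and 3.88 CPM) than without (-1.35 ± 0.34, adjusted p = 0.0206). The peak over the Ikzf4 start (+0.03 kb) was lower with Treg in the same group, at 10.2, 12.8 and 9.92 CPM against 25.8, 21.6 and 17.3 CPM (-1.12 ± 0.27, adjusted p = 0.019), and held between 19.3 and 27.7 CPM in the 18 HP1γ libraries. The exonic peak at +8.85 kb, the most open Ikzf4 peak at 25.9 CPM per kb on average, had log2 fold changes between Tconv and naive cells of -0.91 ± 0.18 (adjusted p = 0.000186) and -1.08 ± 0.21 (adjusted p = 0.000332), past the fold threshold in the HP1α line alone.

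Lrrc32, the gene of GARP, gained accessibility in Tconv at 2 of 3 peaks beyond its 3′ end, while the peak over its start was not called. The +45.3 kb peak (chromosome 7, 98183511 to 98184830) held 2.69, 2.75 and 2.53 CPM in naive HP1γ WT libraries and 11.9, 18.6 and 8.59 CPM in Tconv, and 4.03, 2.75 and 2.95 CPM against 9.84, 7.9 and 6.26 CPM in the HP1α line. The groups did not overlap, and the log2 fold changes were 2.36 ± 0.25 (adjusted p = 1.16e-07) and 1.55 ± 0.2 (adjusted p = 3.24e-06). The +42.1 kb peak rose by 3.06 ± 0.43 and 2.74 ± 0.37. The peak between them and the gene, at +34.4 kb, had log2 fold changes of -0.99 ± 0.24 (adjusted p = 0.00148, under the fold threshold) in the HP1γ line and -1.04 ± 0.33 (adjusted p = 0.0112, called lower) in the HP1α line. The -0.674 kb peak fell by 1.03 ± 0.28 and 1.68 ± 0.36 (adjusted p = 0.00311 and 0.000494). The peak over the start (+0.116 kb) held between 3.07 and 10.7 CPM in all 36 libraries and was not called in any comparison. With Treg, +45.3 kb was called lower in HP1α KO (-1.35 ± 0.28, adjusted p = 0.0306, against 0.284% of all peaks called lower and 0.55% called), where the single KO library kept held 3.57 CPM against 8.49, 9.79 and 9.69 CPM without Treg. The KO libraries that were left out held 6.77 and 8.8 CPM, and the call was lost with all libraries (-0.93 ± 0.25, adjusted p = 0.0604). No Lrrc32 peak was called between KO and WT in either line.

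The rest of the Treg programme was read from lists of genes, by counts of peaks. Of 379 peaks of 30 other Treg signature genes, 207 were called higher and 50 lower in HP1γ WT Tconv than in naive cells, where 24.5% of all peaks were higher and 22% lower. In the HP1α line it was 195 and 43, where 24.9% were higher and 17.5% lower, with medians of 1.42 and 1.29 against 0.08 and -0.03 over all peaks. With Treg, 0 were called in HP1γ WT, where 98 of 71508 peaks were called in all. In HP1γ KO 27 were called higher and 16 lower with Treg (11.3% of the list, against 8.15% of all peaks), and in HP1α WT 27 and 17 (11.6% against 6.76%, and 30 and 13 with all libraries, 11.3% against 7.78%). In HP1α KO it was 0 and 6 (1.58% against 0.55%), and 3 and 9 with all libraries (3.17% against 1.46%). Among them were Ctla4, an inhibitory receptor, higher with Treg by 1.9 ± 0.17 in HP1γ KO (adjusted p = 9.89e-06) and by 2.62 ± 0.29 in HP1α WT (adjusted p = 5.08e-05), and Itgb8, which activates latent TGF-beta, higher by 3.24 ± 0.35 in HP1α WT (adjusted p = 4.01e-05). In HP1α KO a Swap70 peak was lower with Treg over the 15 libraries (-1.36 ± 0.24, adjusted p = 0.016) and over all (-1.1 ± 0.22, adjusted p = 0.0105), and with all libraries Nt5e, an ectonucleotidase, was higher (1.29 ± 0.25, adjusted p = 0.0114). The KO effect with Treg on the list was 34 higher and 33 lower for HP1γ (17.7% of the list, against 11.9% of all peaks) and 1 higher and 11 lower for HP1α (3.17% against 1.63%, and 0 and 4 with all libraries, 1.06% against 0.743%), with medians of -0.06 and -0.12 against -0.02 and -0.11 over all peaks. Without Treg the list had 9 higher and 28 lower in HP1γ KO (9.76% against 3.35%). The same Ctla4 peak (chromosome 1, 60941491 to 60942700) was higher in HP1γ KO with Treg by 2.17 ± 0.19 (adjusted p = 4.27e-06) and lower in HP1α KO (-1.68 ± 0.3, adjusted p = 0.00761).

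Of 726 peaks of 27 regulators and partners of Foxp3, 31 were called higher and 63 lower in HP1γ KO with Treg, 12.9% of the list. This was near the 11.9% of all peaks. The 3 genes of smallest p were all higher, although more of the list's calls were lower. They were Ezh2, a histone methyltransferase (2.05 ± 0.27, adjusted p = 9.76e-05), Tet2, which oxidises methylcytosine (1.86 ± 0.25, adjusted p = 0.000121), and Ets1, a transcription factor (1.9 ± 0.32, adjusted p = 0.000484). In HP1α KO 4 were called higher and 8 lower (1.65% against 1.63%), and 0 and 3 with all libraries (0.413% against 0.743%). Treg exposure gave 0 and 1 in HP1γ WT (0.138% against 0.137%), and 32 and 24 in HP1γ KO (7.71% against 8.15%). It gave 15 and 32 in HP1α WT (6.47% against 6.76%), and 24 and 30 with all libraries (7.44% against 7.78%). It gave 1 and 6 in HP1α KO (0.964% against 0.55%, and 1 and 13 with all libraries, 1.93% against 1.46%).

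Of 126 peaks of 10 genes for storage and activation of latent TGF-beta, the partners of GARP, 10 were called higher and 17 lower in HP1γ KO with Treg, 21.4% against 11.9% of all peaks. In HP1α KO 0 and 5 were called (3.97% against 1.63%), and 0 and 4 with all libraries (3.17% against 0.743%). Itgb8, which also stands on the Treg list, had the smallest p in HP1γ KO (2 ± 0.3, adjusted p = 0.000272), followed by Itgav, an integrin chain (2.04 ± 0.32, adjusted p = 0.000371), and by Tgfbr2, a TGF-beta receptor, which was lower (-1.43 ± 0.24, adjusted p = 0.000761). Of 187 peaks of 10 genes that are lower in Treg, 3 were called higher and 29 lower in HP1γ KO with Treg, where 6.48% of all peaks were called higher and 5.38% lower, with Lef1 at -1.46 ± 0.27 (adjusted p = 0.0013). In HP1α KO it was 0 and 1 (0.535% against 1.63%). Treg exposure gave 0 and 0 on this list in HP1γ WT, against 0.137% of all peaks called, and 6 and 9 in HP1γ KO (8.02% against 8.15%). In the HP1α line it gave 3 and 10 in WT (6.95% against 6.76%, and 4 and 9 with all libraries, 6.95% against 7.78%). It gave 0 and 1 in KO (0.535% against 0.55%, and 1 and 4 with all libraries, 2.67% against 1.46%).

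The pattern of each gene over the 12 groups was compared with that of 7983 protein-coding genes with at least 3 peaks, by the root mean square difference of centred log2 summed CPM. Those most like Ikzf2 were 4930503L19Rik (0.12), Synpo (0.16) and Ppihl (0.16), where the median gene differed by 0.68. Those most like Foxp3, summed over its 2 nearest peaks, were Naglu (0.09), Patz1 (0.1) and Capn3 (0.1). Capg (0.07), Camk1d (0.08) and Arhgdib (0.08) were most like Ikzf4, and Cbfa2t3 (0.13), Hsd17b13 (0.14) and Acsf3 (0.14) most like Lrrc32.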

How the data were processed

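ATAC-seq was performed on 36 libraries of mouse CD4 T cells. The authors deposited raw counts of reads per consensus peak. Per the study's methods and the labels, they trimmed reads (Trim Galore 0.6.7), aligned them to GRCm39 with BWA-MEM, kept those of high mapping quality, removed blacklisted regions and duplicates, called peaks in each sample with HMMRATAC, merged them with BEDTools and counted overlaps with featureCounts 2.0.3, so that neighbouring peaks could share a read. Of 71512 intervals, 3 had no width and were left out.

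Groups were line, genotype and condition as labelled. The HP1γ line (18 libraries) and the HP1α line (15 kept by the study, or all 18) were fitted apart with edgeR 4.0.16 in R 4.3.3 (filterByExpr, TMM, quasi-likelihood test, two-sided), and p-values were adjusted by Benjamini-Hochberg over all 71508 or 71509 peaks tested. All 42 member peaks passed the filter. The contrast between lines was taken from 1 fit of both and was added after the values had been seen. CPM used TMM factors over all 36 libraries, and depth and the number of libraries both limit precision in the HP1α groups with Treg. The members and lists were chosen with earlier results of these data known. Named peaks were, for each gene, the one at its most used start, the most open one, those called (up to 3 by p where over 4 were called in a direction) and the one of smallest p in each comparison. Other called peaks are named by position and were chosen after their values were seen. Of 200 peaks changed by a log2 of 2 in simulated counts, 97% were recovered for HP1γ KO with Treg, 54.5% for HP1α KO with Treg over 15 libraries and 84.5% over all. Alternatives were DESeq2 1.42.0 and its size factors, library size alone, loess offsets, autosomal scaling, no filter, only the groups compared, log2 depth as a covariate, the replicate number as a block, edgeR's earlier quasi-likelihood method and each library left out. Same-numbered libraries deviated together (every pair's correlation over 0.1) in HP1γ KO and WT with Treg (0.15 to 0.32), HP1α KO and WT naive cells (0.25 to 0.5) and HP1γ WT with and without Treg (0.2 to 0.29), and in no other comparison with at least 3 pairs. Likeness of pattern used log2 of summed CPM plus 0.5.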

Additional observations from a re-analysis of the deposited data

Results flagged for a closer look

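At 13 of the 42 peaks the effect of deletion with Treg differed between the HP1γ and the HP1α line, by the difference of the effects in 1 edgeR fit of both. The HP1γ effect minus the HP1α effect was positive at 12 Ikzf2 peaks, with log2 values of 3.7 at +218 kb, 1.86 at +188 kb, 2 at +149 kb, 2.92 at +142 kb, 2.33 at +138 kb, 3.25 at +132 kb, 3.32 at +130 kb, 3.47 at +102 kb, 2.97 at +31.9 kb, 2.74 at +4.16 kb, 1.17 at the start and 2.46 at -16.5 kb. At Ikzf4 +0.03 kb it was -1.13, a call that was lost with all libraries, as was that at Ikzf2 +31.9 kb. Of all peaks 11.1% were called in this comparison, and without HP1α WT replicate 1 with Treg none of the 42 was. The B and NK cell markers that moved with these groups are given with the results, and their part was not tested.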

How the results depend on the processing

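Counts are of the 42 peaks called. In HP1γ KO with Treg the 10 stayed between 7 and 15 under all 11 alternatives and between 7 and 13 without 1 library, and Tconv against naive cells gave 25 to 29 and 22 to 28 (25 to 28 and 23 to 27 without 1 library) against 28 and 28. HP1α KO in Tconv and in naive cells and the HP1γ interaction stayed at 0. With only the groups compared the count was 0 for HP1γ KO in Tconv (6), 5 for HP1γ KO naive (0), 0 for HP1α KO with Treg (4, and 3 with all libraries), 1 for Treg in HP1γ KO (5), 9 for Treg in HP1α WT (14) and 0 for Treg in HP1α KO (1). The earlier quasi-likelihood method gave 3, 0, 0, 0, 1, 9 and 0 in the same order, HP1γ naive included. DESeq2 gave 5 for HP1γ naive, 1 for Treg in HP1γ WT (0), 3 for Treg in HP1γ KO and 0 for Treg in HP1α KO. Depth as a covariate gave 1 for HP1α KO with Treg and 9 for Treg in HP1α WT, and loess offsets gave 0 for Treg in HP1α KO and 1 for the HP1α interaction (0). All libraries gave 2 for Treg in HP1α KO.

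The replicate block gave 12 for HP1γ KO with Treg, 6 for HP1α KO with Treg and 3 for Treg in HP1α KO, and changed no other of the 15 counts by more than 1.5 times; with log2 depth it gave 1 for HP1α KO with Treg, 3 for Treg in HP1α KO and 2 for the HP1α interaction. Without 1 library the counts ran from 0 to 12 for HP1γ KO in Tconv, 0 to 2 for HP1α KO with Treg (0 to 4 with all libraries), 0 to 1 for Treg in HP1γ WT, 1 to 14 in HP1γ KO, 0 to 15 in HP1α WT and 0 to 2 in HP1α KO, and 0 to 17 for the difference between the lines (13). Where a group was left with 1 library it was assumed to vary like the others. The causes were not tested. Of 2468 values of named peaks under an alternative, 2237 kept direction and call, 133 lost and 10 gained the call, 88 others moved and 0 reversed. With gene bodies alone the members would be 3, 20, 4 and 1 peaks, and with starts of any gene 1, 5, 4 and 1. Depth and the number of libraries both limit the HP1α results with Treg, where 1 WT library held 1486053 reads in peaks and 1 KO library was kept.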
